A study of Mus musculus with 2 samples.

Results

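The genes of cholesterol and fatty acid synthesis were followed through the immune cells of a mouse melanoma. The set was a list of 32 gene symbols, 24 for sterol synthesis and its control and 8 for fatty acid synthesis. All 32 were found by symbol among the 32285 genes of both count matrices, and the 2 lists were kept apart. The list was drawn up by function, with earlier results of these data known.

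Cells build cholesterol from acetyl-CoA through the mevalonate route, which yields isoprenoid units, then squalene, then lanosterol and finally cholesterol. The pathway is controlled by feedback. The transcription factor SREBP2, the product of Srebf2, is held in the endoplasmic reticulum by the sterol sensor Scap and the Insig proteins, and moves to the Golgi to be cleaved when membrane sterol is low. Fatty acid synthesis starts from the same acetyl-CoA, is driven by SREBP1 (Srebf1) and by the oxysterol receptors called LXR, and ends with elongases and desaturases. LXR also drives the export of cholesterol. Dividing lymphocytes are known to raise both routes to make membrane.

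The cells came from B16-F0 tumours, a transplantable melanoma line, grown in mice. Living leukocytes were sorted as positive for CD45 and negative for the dead-cell dye DAPI, and profiled with a 10x Genomics droplet assay that counts the 3' ends of polyadenylated RNA. There was 1 library from wild-type (WT) tumours and 1 from knockout (KO) tumours, each a single GEO sample, and the labels give neither the gene knocked out, the age of the mice nor how many were pooled. The labels call the cells tumour-infiltrating Treg cells, while the stated sort takes every living leukocyte.

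With 1 library per genotype no genotype test was possible, and nothing below on genotype was checked in a replicate. Levels are given as CPM, the unique molecular identifiers (UMIs) of a gene summed over the cells of a class and scaled to the UMI total of that class. A genotype ratio is the log2 of knockout over wild-type CPM, and the range in parentheses after it is an exact 95% interval. A member was called higher or lower in a class when it differed at least 1.5-fold (0.58 on the log2 scale) and that interval excluded 1-fold, with at least 20 UMIs over both libraries. These intervals cover counting error only, and a call is a rule of size between 2 libraries. A lower summed level can mean fewer cells with the RNA or less RNA per cell, and these cannot be told apart in a class sum.

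The libraries held 98438084 and 112544655 UMIs, and 11153 wild-type and 11131 knockout cells passed the filter, with medians of 5191 and 6360 UMIs per cell. Cells were gated into classes by their markers, and 11 classes had at least 100 cells in both libraries. They held 75.6% of wild-type cells and 75.0% of knockout cells, and ranged from 101 wild-type cDC1 cells to 3567 wild-type B cells. Cells with markers of more than 1 lineage were left out, 1097 and 698. The Treg-like gate, which did not use Foxp3, took 177 and 459 cells, and Foxp3 UMIs were present in 49.2% of its wild-type cells and 22.0% of its knockout cells. The libraries shared 42 cell barcodes, and leaving these out changed no count of calls among the members. Haemoglobin RNA, the erythroid marker used, differed between the libraries by class, with 811 CPM in wild-type and 1.75 in knockout naive T cells. It was at 651 and 5.37 in B cells and 965 and 5.92 in macrophages, but 13.7 and 428 in Treg-like cells. The part of haemoglobin RNA in the results was not tested.

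Promoter windows are shown for 4 sterol members on which the results below turn. Hmgcs1 encodes the synthase that makes HMG-CoA, Idi1 the isomerase that supplies the second isoprenoid unit, Cyp51 the lanosterol demethylase, and Insig1 the sterol-dependent anchor of SREBP. Each window is the 250 bases before the RefSeq transcription start on assembly GRCm38.p6, given on the strand of the gene. They lie at chr13:119690101-119690350 on the plus strand, chr13:8885356-8885605 on the plus strand, chr5:4104698-4104947 on the minus strand and chr5:28071162-28071411 on the plus strand. Capitals mark the letters TCACNCCAC, a form of the sterol regulatory element, and CCAAT or its reverse complement ATTGG, the box bound by the factor NF-Y.
Hmgcs1: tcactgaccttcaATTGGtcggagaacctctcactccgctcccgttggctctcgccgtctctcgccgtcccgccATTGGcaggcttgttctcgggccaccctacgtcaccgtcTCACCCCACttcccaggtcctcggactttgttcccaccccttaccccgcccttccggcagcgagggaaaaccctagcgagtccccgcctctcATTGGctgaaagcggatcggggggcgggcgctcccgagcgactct
Idi1: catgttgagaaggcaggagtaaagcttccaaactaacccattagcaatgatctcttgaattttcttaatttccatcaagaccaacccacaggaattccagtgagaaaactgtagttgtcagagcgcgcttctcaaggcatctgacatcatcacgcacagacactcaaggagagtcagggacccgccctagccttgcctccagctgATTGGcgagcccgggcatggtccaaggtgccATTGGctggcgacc
Cyp51: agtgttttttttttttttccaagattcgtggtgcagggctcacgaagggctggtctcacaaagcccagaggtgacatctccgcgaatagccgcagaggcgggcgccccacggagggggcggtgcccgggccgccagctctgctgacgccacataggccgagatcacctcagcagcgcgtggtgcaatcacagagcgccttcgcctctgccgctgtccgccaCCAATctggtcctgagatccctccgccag
Insig1: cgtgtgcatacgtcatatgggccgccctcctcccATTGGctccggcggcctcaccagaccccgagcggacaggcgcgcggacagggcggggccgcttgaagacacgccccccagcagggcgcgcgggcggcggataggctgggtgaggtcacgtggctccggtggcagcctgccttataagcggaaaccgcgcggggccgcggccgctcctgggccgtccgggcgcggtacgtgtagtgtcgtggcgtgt
The Hmgcs1 window held the sterol element once, starting at position -137 from the start site, together with 3 CCAAT boxes at -237, -176 and -45. The Idi1 window held CCAAT boxes at -45 and -14, the Cyp51 window held 1 at -29, and the Insig1 window held 1 at -216. A window was found for 25 of the 32 members, 20 sterol and 5 fatty acid. Fdps, Fdft1, Sqle, Stard4, Scd1, Scd2 and Fads1 had none in the table used here. Searched on both strands, TCACNCCAC was in 1 of 20 sterol windows (5.0%), none of the 5 fatty acid windows and 1.04% of 27025 windows of all genes. CCAAT was in 17 of the 20 sterol windows (85.0%) and 1 of the 5 fatty acid windows, against 34.5% of all windows. The GC box GGGCGG, bound by Sp1, was in 16 sterol windows (80.0%) and 2 of the fatty acid windows, against 32.9%. A match describes letters in a window and is not evidence of binding.

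The sterol genes were at their highest level in plasmacytoid dendritic cells (pDC), the dendritic cells specialised in type I interferon. Their summed level was 2885 CPM (95% Poisson interval 2807 to 2964) in wild-type and 3053 CPM (2940 to 3169) in knockout pDC. The type 2 conventional dendritic cells (cDC2, 92 and 86 cells, too few for the genotype comparison) followed with 1841 and 2137 CPM, and the cross-presenting type 1 cells (cDC1) with 1412 and 1858 CPM. In the wild-type library pDC stood 1.57-fold (1.49 to 1.65) above cDC2 and 2.04-fold (1.95 to 2.14) above cDC1. Below the dendritic cells came monocytes (1198 and 1334 CPM), macrophages (958.7 and 1065) and Treg-like cells (873.3 and 934.3).

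Among lymphocytes, the sum was lowest in naive T cells and B cells. CD8 T cells reached 621.3 CPM (wild type) and 815.4 CPM (knockout), and CD4 T cells outside the Treg-like gate 444.7 and 584.1. NK cells stood at 377.3 and 445.6, gamma-delta T cells at 372.1 and 419.1, naive T cells at 336.0 and 315.4, and B cells at 326.1 and 402.1. The 176 wild-type neutrophils stood at 417.2 CPM. From CD4 T cells down, with neutrophils in their place, each wild-type class had an interval that overlapped that of its neighbour in this order, so these levels form a chain without clear steps. In the knockout library, NK and gamma-delta T cells overlapped, as did gamma-delta T and B cells. The order from pDC to CD8 T cells was the same in both libraries with no overlap between neighbours. Wild-type pDC were 8.84-fold (8.49 to 9.21) above B cells, and knockout pDC 7.59-fold. Treg-like cells stood 2.60-fold above naive T cells among wild-type cells and 2.96-fold among knockout cells.

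**Figure D1:**
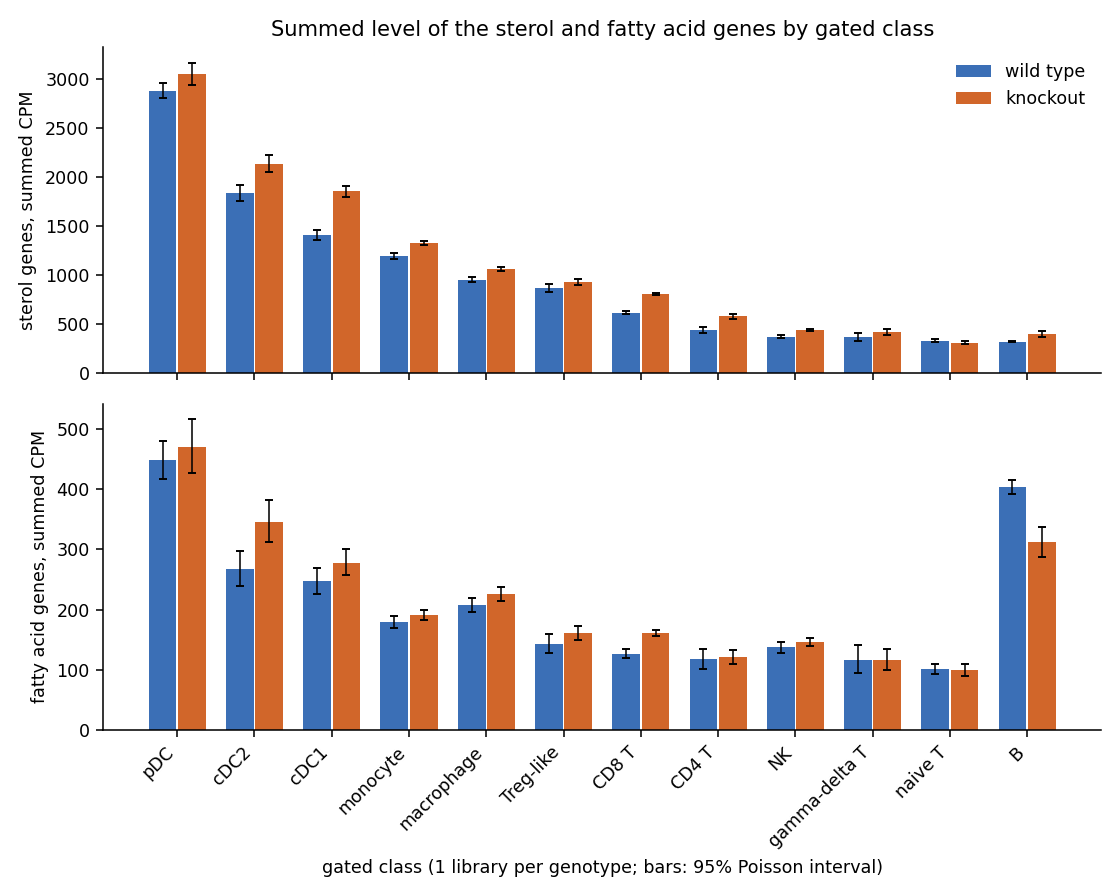
Summed CPM (linear axes from 0) of the 24 sterol genes (top) and the 8 fatty acid genes (bottom) in the 12 gated classes with a level in both libraries, wild type in blue and knockout in orange, with 95% Poisson intervals as error bars. pDC stand highest in both lists, at 2885 and 3053 CPM for the sterol genes, and B cells are lowest or next to lowest for the sterol genes but close behind the dendritic cells or among them for the fatty acid genes.

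The pDC level was shared by nearly the whole list. Of the 24 sterol members, 23 were highest in pDC among the 11 classes in the wild-type library and 22 in the knockout library. Hmgcs1 had 285.3 CPM in wild-type pDC against 136.7 in the next class, cDC1, and 335.4 against 183.1 in the knockout library. Fdps, the farnesyl diphosphate synthase, had 569.4 and 624.4 CPM in pDC and 338.0 and 482.5 in cDC1. Msmo1, a C4-methyl sterol oxidase, had 247.2 and 218.4 CPM in pDC, and Sqle, the squalene epoxidase, 121.4 and 133.5. Scap had 52.97 CPM in wild-type and 71.71 in knockout pDC, and no more than 19.7 in any other class. The exceptions were both regulators. Insig2 was highest in Treg-like cells (23.54 CPM) among wild-type classes and in macrophages (24.11 CPM) among knockout classes, and Srebf2 was at 160.6 CPM in knockout cDC1 against 151.1 in pDC.

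Every pDC and every cDC1 cell in both libraries held at least 1 sterol UMI. That share depends on depth, so cells were thinned to 1000 UMIs each. It was then 91.8% in wild-type and 84.6% in knockout pDC, 80.2% and 75.6% in cDC1, and 25.3% and 25.2% in B cells (61.1% and 66.2% unthinned). pDC, with medians of 8530 and 8637 UMIs per cell, were shallower than cDC1, with 19122 and 18047. The 8 B-cell markers summed to 2513 and 2613 CPM in pDC and to 8993 and 7035 in B cells, and their part in the pDC level was not tested.

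Fatty acid genes followed another order, with B cells near the top. The summed level was 448 CPM in wild-type and 470 in knockout pDC, 403.7 and 311.7 in B cells, 266.9 and 345.8 in cDC2, and 246.8 and 277.8 in cDC1. The other classes lay between 99.4 and 225.7 CPM, apart from the 43.8 CPM of wild-type neutrophils. pDC were highest for Acaca, Scd2, Elovl6 and Fads2, and cDC1 for Fasn, the fatty acid synthase, and Fads1, the delta-5 desaturase. Acly, which makes cytosolic acetyl-CoA from citrate, was highest in wild-type monocytes (88.9 CPM) and knockout macrophages (97.6 CPM). Fads2, the delta-6 desaturase, had 82.2 and 102.6 CPM in pDC and 20.5 and 26.0 in cDC1, a step of 4.01-fold (2.82 to 5.81) in the wild-type library, and not 1 UMI in gamma-delta T cells of either library.

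The B-cell level rested on Scd1, a stearoyl-CoA desaturase that makes oleate. Scd1 was at 313.0 CPM in wild-type and 227.2 in knockout B cells, and at no more than 2.50 CPM in any other of the 11 classes. Cells with a UMI made up 60.4% of B cells in the wild-type library, 61.3% in the knockout library, and 4.36% or less of every other class. After thinning to 1000 UMIs these B-cell shares were 25.5% and 26.3%. Over cDC1, the next class, Scd1 was 125-fold (53.5 to 385) higher in wild-type B cells and 131-fold (50.9 to 484) in knockout B cells. No UMI of Scd1 was seen in knockout CD4 T, naive T, NK or pDC cells. For the 2041 knockout NK cells 0 UMIs allow a share of cells with a UMI of up to 0.147%, 3 counts of the total, which limits detection at this depth and not the share of cells expressing the gene. The share was 0.786% in wild-type NK cells. B-cell markers summed to 19.1 CPM in wild-type and 3.64 in knockout NK cells, and their part in the Scd1 values outside B cells was not tested.

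Scd2, the second desaturase of the same reaction, had a different order. It was at 145.7 and 166.6 CPM in pDC, 69.6 and 78.8 in cDC1, 24.4 and 31.3 in B cells, and lowest at 15.4 CPM in wild-type naive T cells and 14.6 in knockout gamma-delta T cells. Apart from Scd1, the other fatty acid members were low in B cells, which were the lowest class for 4 of the 8 in both libraries.

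**Figure D2:**
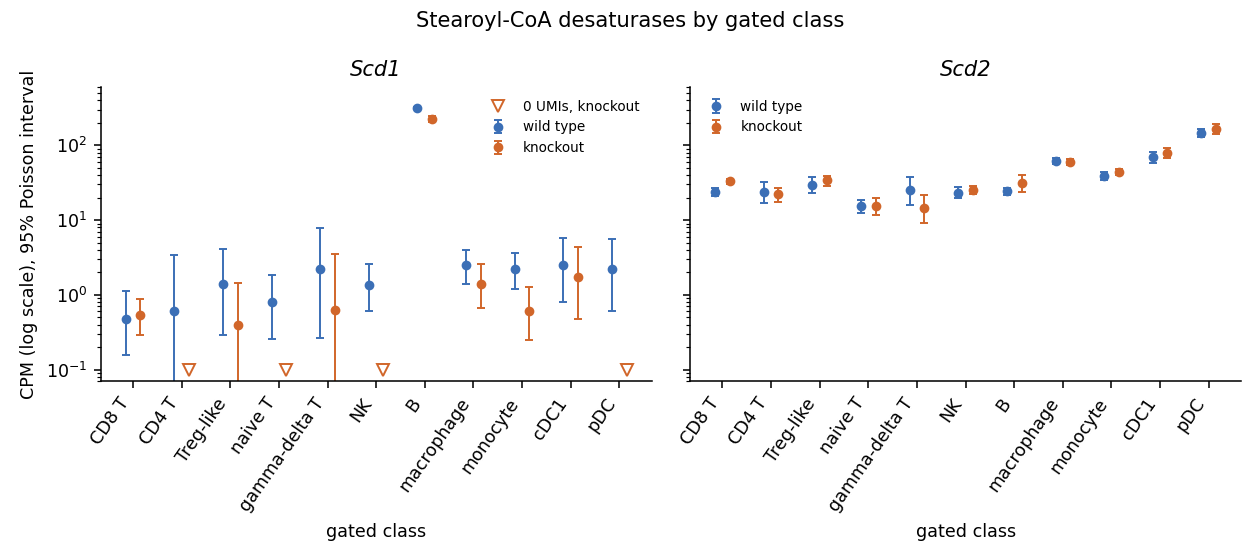
CPM of Scd1 (left) and Scd2 (right) on a log axis in the 11 compared classes, wild type in blue and knockout in orange, with 95% Poisson intervals; open triangles mark knockout classes with 0 UMIs. Scd1 stands at 313.0 and 227.2 CPM in B cells and at 2.50 CPM or less elsewhere, while Scd2 is highest in pDC at 145.7 and 166.6 CPM.

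Between the genotypes, sterol genes were more often above than below the wild-type level in the knockout library. Of 264 pairs of a sterol member and a class, 256 were measured, and 187 of these had a ratio above 0, where 51.5% of the 110227 measured pairs of any gene and a class did. The interval lay above 0 in 65 pairs and below 0 in 2, against 10.2% and 8.64% of the pairs of all genes. By the size rule 26 pairs were called higher and 1 lower, against 3.35% and 3.37% of the pairs of all genes. Pairs are not independent, since a gene recurs in each class. The higher calls covered 14 members, and the lower call was of another member, Dhcr7. The calls lay in 8 of the 11 classes, and 9 members had no call in any class. The summed sterol level was above wild type, with an interval above 0, in 9 classes. The median member was above 0 in 10 of 11 classes, naive T cells being the exception. Calls were sensitive to how cells were counted. Of the 27 calls, 26 could be followed through the alternatives. When classes came from clusters built without these genes, 8 of the 24 with a value were still at least 1.5-fold in the same direction, and after thinning it was 5 of 17; with the stricter cell filter and without the cell richest in each gene it was 26 of 26.

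**Figure D3:**
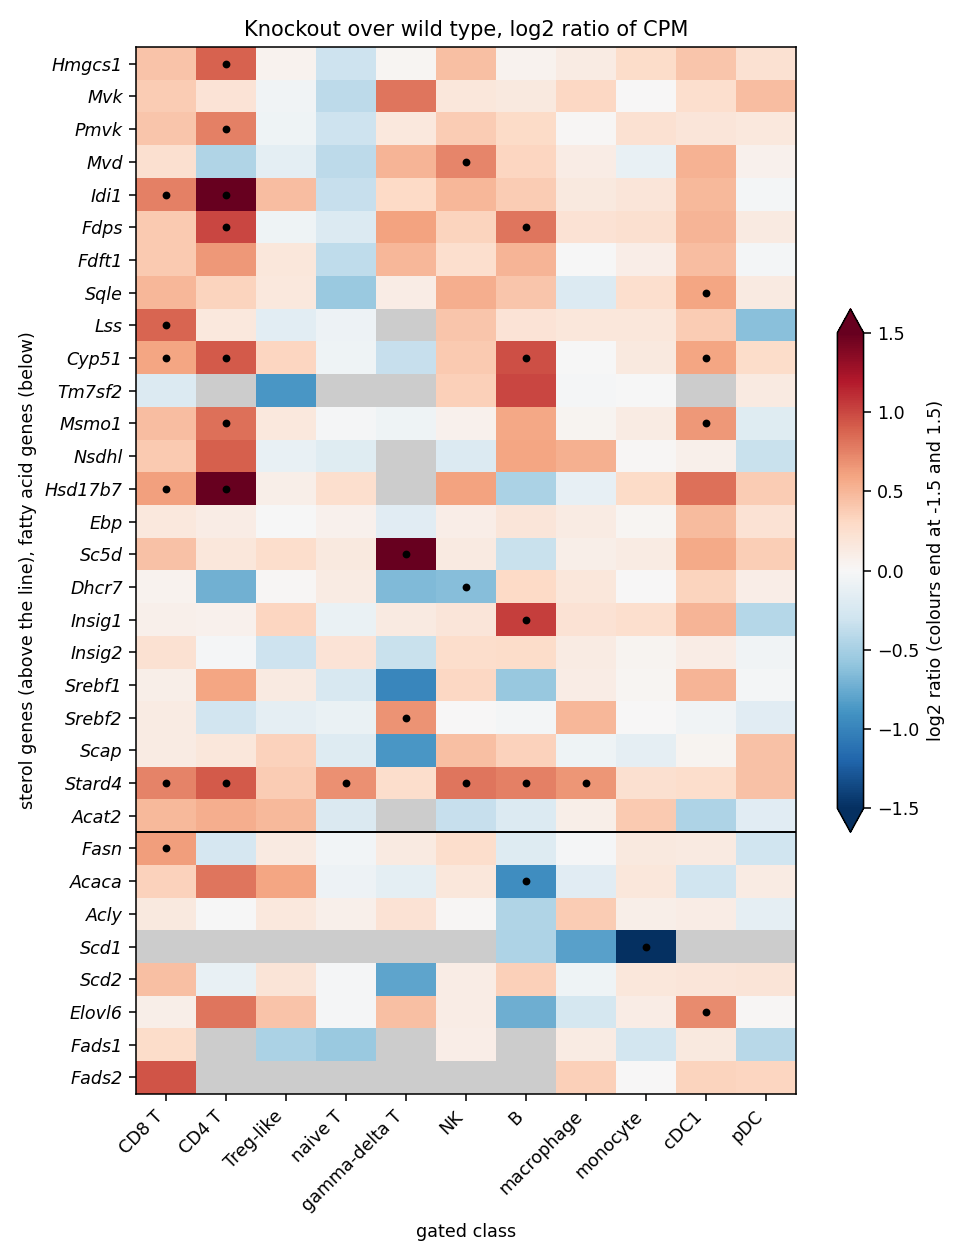
Log2 ratio of knockout over wild-type CPM for each sterol gene (above the line) and fatty acid gene (below it) in the 11 compared classes, red higher and blue lower in the knockout library, grey not measured, with a dot on each called pair. Red prevails among the sterol genes in CD8 T cells, CD4 T cells, NK cells, B cells and cDC1, with 26 pairs called higher and 1 lower, and the Stard4 row is red in every class.

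In CD8 T cells, 5 of 24 sterol members were called higher and none lower, where 3.32% of the 12244 genes measured were called higher and 4.57% lower. The median ratio was 0.40, against 0.02 over all genes, and 23 of 24 ratios were above 0. Idi1 stood at 47.1 CPM in wild-type and 79.6 in knockout cells, a ratio of 0.76 (0.61 to 0.90). Cyp51 went from 48.1 to 72.5 CPM (0.59, 0.45 to 0.74). A further 3 members at lower levels were also called higher. Lss, the lanosterol synthase, went from 5.37 to 9.81 CPM (0.87, 0.45 to 1.31), and Hsd17b7, a sterol ketoreductase, from 7.67 to 11.7 (0.62). Stard4, a carrier that moves cholesterol between membranes, went from 24.1 to 40.3 (0.74, 0.55 to 0.95). Hmgcs1, at 41.8 and 56.4 CPM, had a ratio of 0.43 (0.28 to 0.59), and Sqle, at 21.8 and 30.7 CPM, one of 0.50 (0.28 to 0.72), both short of the size rule. With clusters the ratios of Idi1 and Cyp51 were 0.55 and 0.42, and after thinning those of Idi1 and Stard4 were 0.39 and 0.28.

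CD8 T cells differed in their share of cycling cells, 16.8% among wild-type and 26.3% among knockout cells, and the 10 cycling markers summed to 993 and 1476 CPM. Without cycling cells the summed sterol ratio was 0.21 in place of 0.39, and that of Idi1 was 0.33. Lss, Cyp51, Hsd17b7 and Stard4 stayed called in the non-cycling cells, with 0.76, 0.60, 0.68 and 0.64. They were joined there by Acat2, the cytosolic acetoacetyl-CoA thiolase, so that 5 of 24 were higher and none lower, against 2.58% and 3.06% of all genes. Among cycling CD8 T cells alone, Lss (0.63) and the sterol dehydrogenase Nsdhl were called higher, 2 of 24 against 2.23% of all genes, and none lower against 2.76%.

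CD4 T cells outside the Treg-like gate had the most calls, 8 of 23 higher and none lower, against 3.78% and 2.34% of 9473 genes. The median was 0.55, against 0.04 over all genes. The summed ratio was 0.39 (0.27 to 0.52). Idi1 stood at 10.4 CPM in wild-type and 33.2 in knockout cells (1.68, 0.94 to 2.50) and stayed at least 1.5-fold higher under 11 of 11 alternatives. Among these, the UMI minimums of 50 and 1 cannot change a ratio. The Idi1 ratio was 0.665 with clusters and 1.11 as a mean over cells. Fdps went from 27.5 to 55.2 CPM (1.01, 0.54 to 1.51), Cyp51 from 19.6 to 36.9 (0.92), and Hmgcs1 from 14.1 to 26.0 (0.89, 0.22 to 1.61). Msmo1, Stard4 and Pmvk, the phosphomevalonate kinase, were called with ratios of 0.83, 0.92 and 0.76, and Hsd17b7 with 3 wild-type and 25 knockout UMIs. The wild-type values rested on few reads in 323 cells, from 17 UMIs for Idi1 to 45 for Fdps among the 7 members other than Hsd17b7. With cluster-based classes the CD4 sum was 0.11, and the ratios of Fdps, Cyp51, Hmgcs1, Msmo1, Stard4 and Pmvk were 0.53, 0.26, 0.52, 0.28, 0.45 and 0.19. After thinning Fdps was at 0.35 and Cyp51 at -0.063.

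Stard4 was the member most often called, in 6 of 11 classes, and its ratio was above 0 in 11 of 11. In NK cells it stood at 14.6 CPM in wild-type and 25.6 in knockout cells (0.81, 0.47 to 1.15). Under 11 of 11 alternatives it stayed between 0.75 and 0.85, though the UMI minimums among them cannot change a ratio. Naive T cells had 9.60 and 15.5 CPM (0.69, 0.15 to 1.23), B cells 8.40 and 14.2 (0.76, 0.11 to 1.36), and macrophages 21.4 and 33.8 (0.67, 0.36 to 0.98). With clusters the naive T, B-cell, macrophage and CD4 T values were 0.55, 0.44, 0.40 and 0.45, short of the size rule. The CD8 T and NK values stayed past it there, at 0.69 and 0.80. The macrophage value was 0.34 as a mean over cells and -0.11 after thinning. In Treg-like cells Stard4 was at 35.8 and 46.6 CPM (0.38), and turned to -0.74 after thinning. Gamma-delta T cells, monocytes, cDC1 and pDC had ratios of 0.27, 0.24, 0.26 and 0.44, none of them called. Across the 11 classes its median was 0.67, and the next highest median among the sterol members was 0.38, for Idi1.

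cDC1 had a summed sterol ratio of 0.40 (0.33 to 0.46), beside 0.39 in both CD8 and CD4 T cells. There 3 of 23 members were called higher and none lower, against 3.86% and 2.72% of 8592 genes, with a median of 0.47 against 0.08 over all genes. The called members were Sqle, at 42.6 and 64.1 CPM (0.59), Cyp51, at 95.1 and 143.2 (0.59, 0.33 to 0.86), and Msmo1, at 57.6 and 90.0 (0.65). Idi1, at 109.7 and 153.6 CPM (0.49), and Fdps (0.51) were below the size rule. With clusters, 33.4% of the cDC1 cells had markers of more than 1 lineage. There the ratios of Sqle, Cyp51 and Msmo1 were 0.20, 0.19 and 0.32. Centred on the median gene they were 0.51, 0.52 and 0.57, so none of the 3 met the size rule there either. The cDC1 classes held 101 and 119 cells, of which 23.8% and 31.9% were cycling; without the cycling cells the class was too small to compare, so the part of cycling was not tested.

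NK cells had 2 of 24 members higher and 1 lower, against 2.82% and 1.67% of 11189 genes, with a median of 0.32 against 0.05. Beside Stard4, the decarboxylase Mvd was called higher, at 4.92 and 8.19 CPM (0.73), but not with clusters (0.47) or with the highest doublet scores removed (0.49). Dhcr7, the reductase of the last step to cholesterol, was the 1 sterol member called lower in any class. It stood at 11.2 CPM in wild-type and 7.19 in knockout NK cells (-0.64, -1.11 to -0.16), and was at -0.49 with clusters and -0.21 after thinning.

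B cells had 4 of 24 members higher and none lower, against 4.92% and 7.20% of 10778 genes, with a median of 0.31 against -0.15 over all genes. Fdps stood at 21.3 and 37.1 CPM (0.80, 0.42 to 1.17), Cyp51 at 14.96 and 29.3 (0.97, 0.53 to 1.39), and Insig1 at 10.7 and 22.0 (1.04, 0.52 to 1.54). A single cell held 21.7% of the knockout UMIs of Cyp51 and 1 cell held 22.2% of those of Insig1. Without the richest cell of each gene the ratios of Fdps, Cyp51 and Insig1 were 0.77, 0.73 and 0.80, and with clusters they were 1.32, 1.21 and 1.23. As a mean over cells the Insig1 ratio was 0.26 and that of Fdps 0.37, and after thinning they were -0.75 and 0.03. The summed B-cell ratio of 0.30 was likewise 0.073 after thinning. Cycling markers were at 57.3 CPM in wild-type and 173 in knockout B cells. Cycling cells numbered 5 and 2. Without them the ratios of Fdps, Cyp51, Insig1 and Stard4 were 0.66, 0.76, 0.65 and 0.58, the last just short of the size rule. Haemoglobin RNA was at 651 and 5.37 CPM, and its part was not tested.

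The remaining classes had few sterol calls or none. In naive T cells 1 of 23 (Stard4) was called higher and none lower, against 3.01% and 2.57% of 10175 genes, and the summed ratio was -0.09 (-0.19 to 0.01). In gamma-delta T cells 2 of 19 were called higher and none lower, against 3.29% and 2.71% of all genes, Srebf2 at 39.4 and 62.9 CPM (0.67) and the desaturase Sc5d with 7 and 35 UMIs (1.54, 0.34 to 2.95). In macrophages 1 of 24 (Stard4) was called higher and none lower, against 2.50% and 4.31%. Among cycling macrophages alone 1 of 23 was higher against 5.09% (none lower against 4.02%). The cycling knockout macrophages included a cell with 230 of the 809 Srebf2 UMIs of the class. Among non-cycling macrophages 2 of 24 were higher against 2.07% (none lower against 4.83%). Treg-like cells, monocytes and pDC had none of 24 in either direction, where 2.61%, 3.65% and 3.11% of all genes were higher and 3.00%, 2.90% and 2.18% lower. Their summed ratios were 0.10 (0.02 to 0.18), 0.16 (0.12 to 0.20) and 0.08 (0.02 to 0.15). The Treg-like sum was -0.076 without cycling cells, with cycling shares of 27.1% and 19.0%, and -0.006 after thinning.

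Of the genes of the SREBP machinery, Srebf1, Srebf2, Scap, Insig1 and Insig2 were each measured in 11 classes. Srebf2 and Insig1 were each called higher in 1 class, and none of these genes was called lower. Among the pairs of all genes 3.35% were called higher and 3.37% lower. Srebf1 had no call in 11 classes, with ratios from -0.98 in gamma-delta T cells to 0.60 in CD4 T cells, each with an interval that included 0. Scap had ratios from -0.87 to 0.45 and Insig2 from -0.33 to 0.28, with no call. Insig1, itself a target of SREBP, had ratios from -0.42 in pDC (117.0 and 87.2 CPM) to the 1.04 of B cells. Srebf2 ranged from -0.28 in CD4 T cells to the called 0.67 of gamma-delta T cells. Its macrophage ratio of 0.50 (0.34 to 0.66), from 80.9 to 114.1 CPM, rested on 1 cell. That cell held 230 of the 809 knockout UMIs (28.4%), and the next held 16. Without the top cell of each library Srebf2 was at 77.8 and 81.9 CPM, a ratio of 0.08 (-0.10 to 0.25).

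Fatty acid members showed no common direction between the genotypes. Of 88 pairs, 71 were measured, and 44 ratios were above 0, with 2 called higher and 2 lower, against 3.35% and 3.37% of the pairs of all genes. In CD8 T cells Fasn was called higher, 1 of 7 against the 3.32% of all genes, at 27.2 CPM in wild-type and 42.0 in knockout cells (0.63, 0.44 to 0.82). Without cycling cells its ratio was 0.31, and with clusters 0.51. Acaca, the acetyl-CoA carboxylase of the committed step, was at 11.3 and 14.3 CPM (0.34), and Scd2 at 24.0 and 32.9 (0.46, 0.25 to 0.67), which was -0.038 after thinning. In the non-cycling CD8 T cells 1 of 6 measured members was called higher and none lower, against 2.58% and 3.06% of all genes. This was Acaca, at 6.61 and 11.6 CPM (0.82, 0.30 to 1.36). Among cycling CD8 T cells none of 7 was called in either direction, against 2.23% higher and 2.76% lower. In cDC1 the elongase Elovl6 was called higher, 1 of 7 against 3.86%, at 13.5 and 22.1 CPM (0.71, 0.01 to 1.44), and was at 0.19 with clusters.

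In B cells 1 of 6 measured fatty acid members was called lower and none higher, where 7.20% of all genes were lower and 4.92% higher. The ratio was below 0 for 5 of the 6, and their median was -0.46 against -0.15 over all genes. The called member was Acaca, at 10.2 CPM in wild-type and 5.37 in knockout cells (-0.93, -1.97 to -0.04), with 11 knockout UMIs, and was at -0.31 after thinning. The summed ratio was -0.37 (-0.49 to -0.25), and Scd1 supplied most of the UMIs in it, 4100 of 5288 in wild-type B cells and 465 of 638 in knockout B cells. Scd1 had a ratio of -0.46 (-0.60 to -0.32), below the size rule, and Acly one of -0.45 (-0.88 to -0.04). The Scd1 ratio was 0.064 after thinning and the B-cell sum was then -0.032; centred on the median gene the sum was -0.22. The 8 B-cell markers stood at 8993 and 7035 CPM in these cells, and their part was not tested. In monocytes Scd1 was called lower, 1 of 8 against 2.90%, at 2.20 and 0.61 CPM (-1.84, -3.39 to -0.44), on 14 wild-type and 7 knockout UMIs. B-cell markers in monocytes went from 20.9 to 6.29 CPM, and their part in the Scd1 value was not tested. The other 7 classes had no fatty acid call. In macrophages Acly stood at 74.7 and 97.6 CPM (0.39, 0.22 to 0.56), short of the rule.

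Cycling cells, taken as those with a UMI of at least 3 of 10 proliferation markers, were numerous enough to be split off in CD8 T cells and macrophages. In CD8 T cells sterol genes were higher in cycling cells in both libraries. The sum was 466 CPM in non-cycling and 862 in cycling wild-type cells (0.89, 0.82 to 0.96), and 541 and 1015 in the knockout library (0.91, 0.87 to 0.95). Of 24 members, 14 were called higher in wild-type cells and 16 in knockout cells and none lower, where 20.2% and 19.7% of all genes were called higher and 18.2% and 20.7% lower. The medians were 0.88 and 0.83, against -0.01 and -0.03 over all genes. Idi1 had 26.1 CPM in non-cycling and 79.8 in cycling wild-type cells (1.61), and 32.9 and 113.7 in the knockout library (1.79). Cyp51 had ratios of 1.62 and 1.25, Sqle 1.46 and 1.33, and Hmgcs1 1.33 and 1.20. Among the regulators, Srebf2 was at 0.31 and 0.50, below the median member. Insig2 was at -0.23 and -0.35, the lowest ratio of the 24 members in both libraries. Fatty acid genes were also higher in cycling CD8 T cells, by 0.59 in the sum of both libraries. There 3 of 6 members were called higher in wild-type and 2 of 7 in knockout cells. None was lower, beside the same shares of all genes. Fasn was called in both (0.99 and 1.17), and Acaca in the wild-type library (1.49) and not in the knockout library (0.48).

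Macrophages did not show this pattern. Their sterol sum was lower in cycling cells, by -0.34 (-0.43 to -0.25) in the wild-type and -0.36 (-0.44 to -0.29) in the knockout library. In the wild-type library none of 24 members was called higher and 6 lower, against 14.6% and 8.18% of all genes. In the knockout library 1 (Srebf2, whose count includes the 230 UMIs of 1 cell) was higher and 8 lower, against 19.9% and 7.97%. Cyp51 was called lower in both, at 98.4 CPM in non-cycling and 51.5 in cycling wild-type cells (-0.93) and at 100.7 and 48.3 in the knockout library (-1.06). Of the fatty acid members, 2 of 7 were called higher in cycling wild-type macrophages and 1 of 7 in knockout ones. None was lower, beside the same shares of all genes. Their sums had ratios of 0.14 (-0.03 to 0.32) and 0.05 (-0.11 to 0.21). Fads1 was the member called in both libraries, 14.7 to 25.8 CPM (0.81) and 12.6 to 35.9 (1.51). The direction of the sterol sum turned with the definition of the class. With clusters, which named 143 and 115 cells macrophages against 344 and 451 by the gate, it was 0.31 and 0.94. Of the cells in that cluster, 49.6% had markers of more than 1 lineage, which the gate leaves out. The difference between CD8 T cells and macrophages was not tested.

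**Figure D4:**
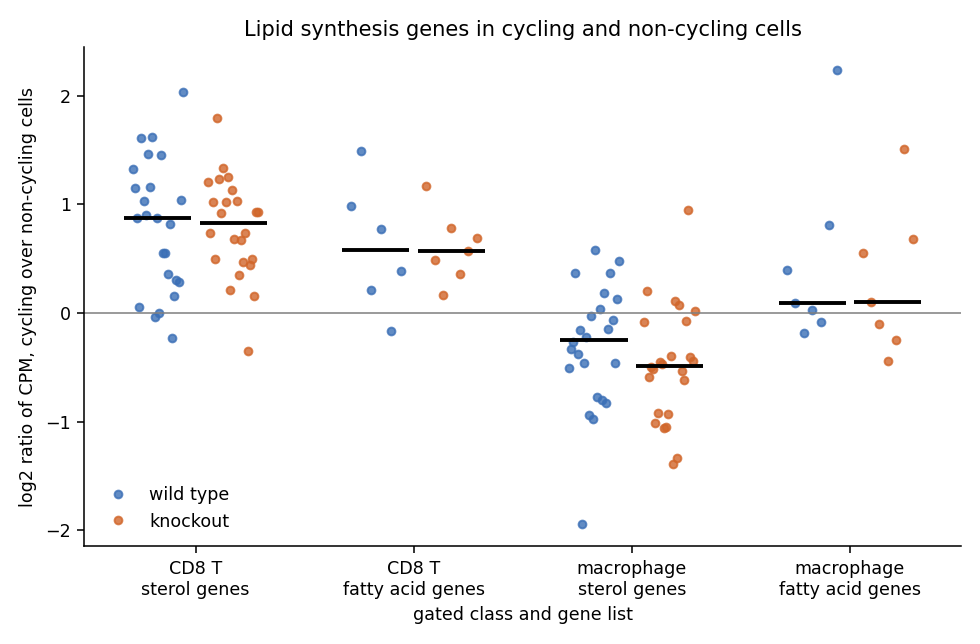
Log2 ratio of CPM in cycling over non-cycling cells (vertical axis) for each measured member, by class and gene list, wild type in blue and knockout in orange, with a bar at the median. Sterol genes of CD8 T cells lie mostly above 0 in both libraries (medians 0.88 and 0.83), and those of gated macrophages mostly below 0 (medians -0.24 and -0.48).

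Beyond the members, 86 further lipid genes in 7 lists were counted by the same rule. Over 801 measured pairs, 21 were called higher and 43 lower, with a median of -0.03, against 3.35% and 3.37% of the pairs of all genes. The genes that mature and degrade SREBP, such as the protease Mbtps2, had 1 higher and 3 lower of 130 pairs, all in B cells, where 4.92% of all genes were higher and 7.20% lower. The isoprenoid branch had 1 and 2 of 122, and sterol storage and lysosome genes 2 and 2 of 108. Fatty acid supply genes had 3 and 0 of 174, and fatty acid oxidation 4 and 4 of 122. Most calls lay in 2 lists, and there they were mostly lower.

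Sterol efflux, LXR and oxysterol genes had 15 pairs lower and 3 higher of 88, against 3.37% and 3.35% of the pairs of all genes. In macrophages 3 of 11 were called lower and 1 higher, against 4.31% and 2.50% of all genes, and in CD8 T cells 3 of 9 lower, against 4.57%. Abca1, the LXR target that exports cholesterol, stood at 59.6 CPM in wild-type and 22.7 in knockout macrophages (-1.39, -1.67 to -1.12), and was also called lower in CD8 T cells, NK cells and monocytes (-0.96, -0.71 and -0.68). Its partner exporter Abcg1 went from 17.2 to 10.1 CPM in CD8 T cells (-0.77, -1.05 to -0.49) and from 35.4 to 18.3 in CD4 T cells (-0.95). Mylip, an LXR target that degrades lipoprotein receptors, was lower in B cells, at 128 and 61.1 CPM (-1.07, -1.34 to -0.80), in macrophages (-1.27), CD8 T cells (-0.75, but 0.11 after thinning) and CD4 T cells (-0.61). Nr1h3, which encodes LXR alpha, was lower in monocytes (-1.40). In the other direction, Ch25h, the cholesterol 25-hydroxylase, was at 0.94 and 6.12 CPM in monocytes (2.70, 1.51 to 4.20), and the oxysterol hydroxylase Cyp7b1 at 14.4 and 53.0 in pDC (1.88).

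**Figure D5:**
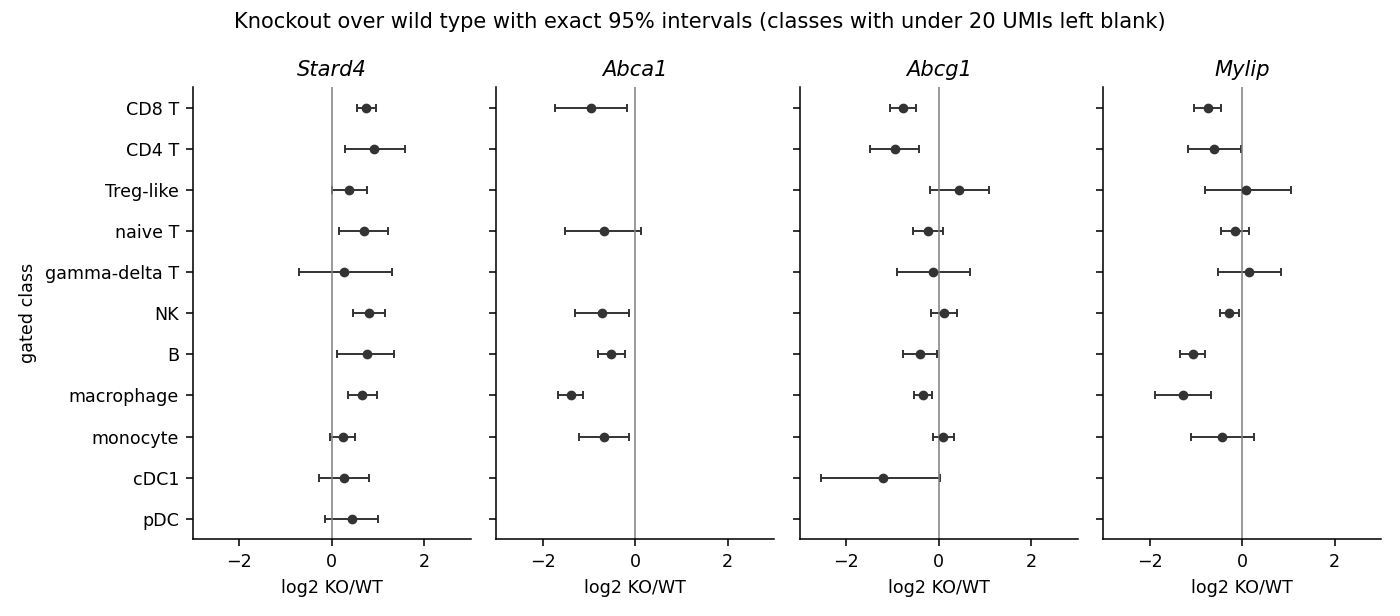
Log2 ratio of knockout over wild-type CPM (horizontal axis) with exact 95% intervals for Stard4, Abca1, Abcg1 and Mylip in the compared classes, blank where a class had under 20 UMIs. Stard4 lies right of 0 in 11 of 11 classes, and Abca1 lies left of 0 in every class measured, as far as -1.39 in macrophages.

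Fatty acid uptake genes had 17 pairs lower and 7 higher of 57, against 3.37% and 3.35% of the pairs of all genes, and single genes were called in opposite directions in different classes. Fabp5, a fatty acid binding protein, stood at 199.2 CPM in wild-type and 67.4 in knockout CD4 T cells (-1.56, -1.81 to -1.32), but was higher in NK cells, at 30.7 and 58.8 (0.94). Lpl, the lipoprotein lipase, was higher in NK cells, at 6.11 and 21.3 CPM (1.80, 1.32 to 2.32), and lower in Treg-like cells, at 50.4 and 15.8 (-1.67). The NK ratio of Lpl was -0.23 with clusters. The scavenger receptor Cd36 was lower in macrophages, at 124.7 and 72.1 CPM (-0.79), and in CD8 T cells, at 8.72 and 2.05 (-2.09). Macrophage markers in CD8 T cells were at 25.8 and 20.3 CPM, and their part in the Cd36 value was not tested.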

How the data were processed

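The deposited matrices, 1 per genotype, hold raw UMI counts of each gene in each cell. Cell Ranger 5.0.0 is named per the file headers, and STAR and mm10 per the submitters' processing notes. The annotation release was not given in the sources used here. Cells with at least 500 genes, 1000 UMIs and at most 10% mitochondrial UMIs were kept.

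Cells were gated by how many preset markers had a UMI. T cells needed 3 T markers with Cd3e or Cd3d, B cells 3, NK cells 2 with under 3 T markers, monocytes 4, and macrophages, neutrophils and each dendritic type 3. Treg-like cells were Cd4-positive and Cd8-negative T cells with 4 Treg markers other than Foxp3. The rest were naive T (3 markers), gamma-delta T (Trdc and 2 markers), CD8 or CD4 T cells. Gate thresholds were set after the data were seen. No member was a gate marker. Cells of more than 1 lineage were left out. Scrublet called 355 wild-type cells (3.18%) and 0 knockout cells, so it had not worked, and removal of the highest scores (1020 and 1015 cells) served as an alternative.

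UMIs were summed per class and library in Python 3.11.15 with numpy 2.4.6, scipy 1.17.1 and pandas 2.3.3, and ratios were given exact conditional binomial intervals. The calculation was tested on simulated data. No test was run between genotypes. The members and all lists were chosen with earlier results of these data known. Values were given for members past the size rule with at least 50 UMIs in the class, for up to 4 members per list and class with the interval farthest from 0, and, by range or value, for the main synthesis and control genes. Hsd17b7 in CD4 T cells, below 50 UMIs, was named after its values were seen. The 11 alternatives were Leiden clusters (scanpy 1.11.5, igraph 0.11.9, 2000 variable genes, 30 components, 15 neighbours) made without these genes, removal of doublet scores, a stricter cell filter (1000 genes, 2000 UMIs, 5%), centring on the median gene, means over cells, thinning to 1000 UMIs, leaving out cycling cells, UMI minimums of 50 and 1, leaving out the richest cell per gene, and, chosen after seeing the data, leaving out shared barcodes.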

Additional observations from a re-analysis of the deposited data

How the results depend on the processing

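No paired analysis was possible because each genotype had 1 library. Of 608 summary values under the alternatives, 524 kept their direction and stayed within their counting interval or 1.5 times the count, 78 moved and 6 reversed; the cause was not tested. No value could be had with clusters for gamma-delta T cells and pDC, with doublet scores removed for cDC1 and pDC, with the stricter filter for pDC, and without cycling cells for cDC1. At 1000 UMIs per cell, 17 of the 26 sterol calls followed still had enough UMIs for a value.
With clusters, the sterol sum ratio was 0.29 in CD8 T, 0.11 in CD4 T, 0.18 in Treg-like, 0.05 in naive T, 0.17 in NK, 0.21 in macrophages and 0.25 in cDC1, the fatty acid sum was -0.13 in macrophages and the fatty acid median 0.41 in CD4 T. The cluster classes kept cells with markers of more than 1 lineage, 49.6% of the macrophage and 33.4% of the cDC1 cluster. Sterol calls were 13 higher, fatty acid calls 1 higher and other pathway calls 12 higher. The sterol level in wild-type pDC was 2599 CPM and Scd1 in wild-type B cells 323.4 CPM. The cycling ratio in CD8 T was 1.00 and 1.04 for sterol and 0.78 for wild-type fatty acid genes, and in macrophages 0.31 and 0.94 for sterol genes. Single ratios reversed for Nsdhl in macrophages (-0.11), Cyp27a1 in macrophages (0.04), Lpl in NK (-0.23), Fabp5 in B (-0.63) and Fabp4 in macrophages (1.96).
With cells thinned, the sterol sum was 0.21 in CD8 T, 0.17 in CD4 T, -0.006 in Treg-like, 0.17 in NK and 0.073 in B cells. The fatty acid sum was 0.25 in CD8 T, -0.13 in Treg-like, 0.20 in naive T, -0.032 in B, -0.039 in macrophages, 0.24 in monocytes and -0.16 in pDC, and its median 0.77 in Treg-like, 0.45 in naive T and 1.06 in gamma-delta T. Sterol calls were 5 higher and 0 lower, fatty acid calls 1 lower and other pathway calls 13 lower. Wild-type pDC had 2763 sterol CPM and knockout B cells 335.7 CPM of Scd1. The cycling ratio was 1.11 and 1.22 in CD8 T, -0.77 and -0.60 in macrophages, and -2.07 for fatty acid genes of knockout macrophages. Reversed were Cyp51 in CD4 T (-0.063), Stard4 in Treg-like (-0.74) and macrophages (-0.11), Idi1 in NK (-0.063), Insig1 in B (-0.75), Sqle in monocytes (-0.32), Scd2 in CD8 T (-0.038), Scd1 in B (0.064), Mylip in CD8 T (0.11) and Hsd3b7 in macrophages (-0.10).
As means over cells, the sterol sum was 0.33 in CD8 T, 0.21 in CD4 T, 0.037 in naive T, 0.18 in B, 0.10 in macrophages and 0.10 in monocytes, and the fatty acid sum -0.16 in B. Calls were 4 lower for sterol and 4 higher for fatty acid genes, Scd1 in B cells was at 326.0 and 294.2 CPM, and the cycling ratio 1.06 and 1.08 in CD8 T and -0.053 for fatty acid genes of wild-type macrophages. Without cycling cells, the sterol median and sum were 0.21 and 0.21 in CD8 T, the sum was -0.076 in Treg-like, and the fatty acid sum was 0.23 in CD8 T.
With the highest doublet scores removed, the sterol sum was 0.011 in Treg-like, fatty acid calls were 1 higher and 0 lower, the cycling ratio was 1.05 and 0.98 in CD8 T and -0.52 in knockout macrophages, and Fabp4 reversed in CD8 T (2.19) and Treg-like (2.27). Centred on the median gene, the sterol sum was 0.45 in B and 0.32 in cDC1, the fatty acid sum -0.22 in B, and fatty acid calls 1 higher and 1 lower. With the stricter filter, the fatty acid sum was -0.54 in B, fatty acid calls 5 lower and Scd1 in knockout B cells 196.4 CPM. A minimum of 50 UMIs left 1 fatty acid member lower. Without the richest cell per gene, fatty acid calls were 1 lower, pDC had 2795 and 2892 sterol CPM, the macrophage cycling ratio was -0.52 and -0.64, and -0.065 for wild-type fatty acid genes, and Plin2 in gamma-delta T (-0.26), Fabp5 in B (-0.16) and Fabp5 in pDC (0.094) reversed.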
